A study of Homo sapiens with 6 samples.

Results

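Cornified envelope and keratinocyte differentiation genes are the genes that squamous cells switch on late in their life, and 50 of them were chosen by name from general knowledge of squamous terminal differentiation. Earlier results of these data were known when they were chosen, so counts over the members describe them and test nothing. The deposited gene table of 14959 genes holds 45 of the 50. TGM3, TGM5, SPRR2D, SPRR2E and LOR have no row under their name or gene ID and were not analysed here. The RNA came from UM-SCC1 cells, a long-established line of head and neck squamous cell carcinoma (HNSCC), transfected with miR-204-5p mimics (n = 3) or with control mimics (n = 3), and the study asked which genes and pathways respond to this miRNA. A mimic is a synthetic double-stranded RNA that a cell uses like its own mature miRNA. Both groups were transfected and were harvested 48 h later, and the series describes 3 independent experiments for each group. UM-SCC1 is a single line kept in culture, so the p-values cover the spread between transfections of 1 line.

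In stratified squamous epithelium, cells that leave the basal layer build a cornified envelope under their membrane. Involucrin and the small proline-rich (SPRR) proteins are cross-linked by transglutaminases onto a scaffold of the plakins envoplakin and periplakin. Kallikrein proteases later cut the links between the dead cells, and serpins, cystatins and other inhibitors hold proteases in check. Squamous carcinomas keep parts of this program, and its genes serve as signs of how differentiated a tumor is.

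The mature miRNA is shown because its seed (bases 2 to 8, in capitals) is the stretch that pairs with target RNAs. It lies on the minus strand at chr9:70810031-70810052 (GRCh38.p14, sequence from RefSeq).
hsa-miR-204-5p: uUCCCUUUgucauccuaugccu

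A match to the seed is the 8-base AAAGGGAA (8mer), the AAAGGGA within it (7mer-m8) or the AAGGGAA within it (7mer-A1). When the longest 3′UTR annotated for a gene was read (GENCODE 29, on GRCh38), 5 of the 44 members with a 3′UTR held such a match (11.4%), against 4387 of 14847 genes (29.5%). The members' 3′UTRs were short, with a median of 479 bases, against 1510 bases over all genes, and a shorter sequence holds fewer matches by itself. When only transcripts annotated as protein coding were read, a choice made after the matches had been seen, 3 members remained (6.82%, against 27.1% of genes). These 3 sites are IVL at chr1:152911595-152911601 in exon 2 of 2, CALML3 at chr10:5526730-5526736 in its single exon, and PRDM1 at chr6:106108193-106108200 in exon 5 of 5, all on the plus strand and in the 3′UTR. They are shown with the match in capitals.
IVL, 7mer-A1: tcgtctcatacAAGGGAAgagagagccact
CALML3, 7mer-m8: ccttcaattctAAAGGGAggtatgttttgc
PRDM1, 8mer: gaagaaacaagAAAGGGAAtcttgtatatt

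The other matches were 7mer-A1 sites of SCEL and SPINK5 in transcripts not annotated as protein coding, and the PRDM1 site lies outside the transcript that the table lists for PRDM1. Whether any of these sites was bound by the miRNA was not tested.

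Levels are FPKM as computed by the authors, the number of fragments scaled by transcript length in kilobases and by the mapped total of the library. A fold change is the difference of the mean log2(FPKM + 1) between groups, miR-204-5p mimics minus control mimics, and the added 1 makes it understate changes of genes with low FPKM. Changes were tested with limma, a linear model fitted to all genes at once, and a gene was called changed at a Benjamini-Hochberg adjusted p under 0.05 over all 14959 genes. An exact permutation test of a single gene cannot go below p = 0.1 with 3 against 3 libraries, so the model over all genes was used. In bulk RNA, fewer cells that express a gene and less of its RNA per cell cannot be told apart.

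All 12 squamous epithelial markers of a fixed list were present with a mean of at least 1 FPKM, and KRT5, a basal keratin, averaged 129 FPKM with miR-204-5p mimics and 174 FPKM with control mimics. Summed over the list, these markers stood at 727 to 817 FPKM with miR-204-5p mimics and at 930 to 947 FPKM with control mimics. By the test 7 of the 12 were lower and 3 higher (83.3% called, against 40.8% of all genes). Fibroblast markers (4 of 8 in the table) summed to 9.81 to 11.6 against 8.58 to 9.41 FPKM, nearly all of it COL1A1. Of these 4, 2 were called higher and 0 lower. Immune markers (9 of 9) summed to 27.5 to 31.3 against 33.0 to 34.6 FPKM, and 1 of them was called lower and 0 higher. PTPRC, the pan-leukocyte marker, went against this sum, at 0.293 against 0.138 FPKM, and did not pass the test. Endothelial and melanocyte markers summed to at most 1.52 FPKM in any library. By the test 1 of 3 endothelial markers was higher and 0 lower, and of 2 melanocyte markers 1 was lower and 1 higher. The part of these shifts in the results was not tested. The inferred depth was 13.1 to 16.0 M fragments with miR-204-5p mimics and 13.9 to 16.4 M with control mimics.

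Of the 45 genes, 10 fell and 9 rose with miR-204-5p mimics, and 26 did not pass the test. Over all genes 40.8% were called, 16.8% lower and 23.9% higher, so a count of 19 of 45 (42.2%) is close to the background. The median log2 fold change was -0.03 over the members and 0.03 over all genes. On the log2(FPKM + 1) scale, the members that moved far moved down. At 1.5-fold or more on this scale, 7 of the 45 members were called lower and none higher. The 9 members called higher by limma lay below that fold. By the same rule 3.32% of all genes were lower and 5.01% higher. In FPKM without the added 1, the ratio of means of SCEL was 1.56 upward. FPKM did not overlap between groups for 20 members, 10 in each direction, against 53.6% of all genes (22.7% lower and 30.9% higher). All 19 called members were among the 34 with a mean of at least 1 FPKM, a class in which 47.8% of all genes were called (20.1% lower and 27.7% higher).

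**Figure D1:**
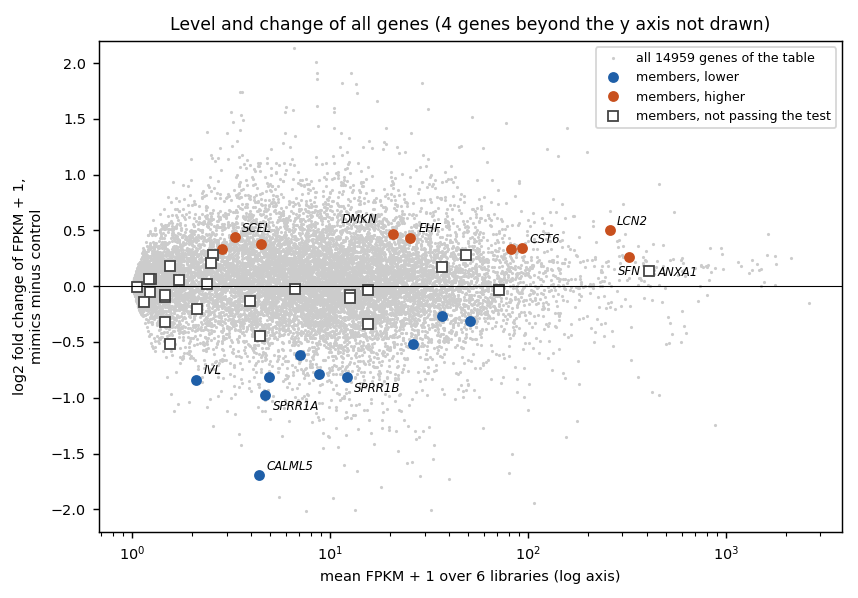
Mean FPKM + 1 over 6 libraries (x, log axis) against the log2 fold change of FPKM + 1, miR-204-5p mimics minus control mimics (y), for all genes (grey) and the 45 members (blue circles lower, orange circles higher, open squares not passing the test). CALML5 lies lowest of the members at -1.70, and the highest member, LCN2, lies at 0.50.

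**Figure D2:**
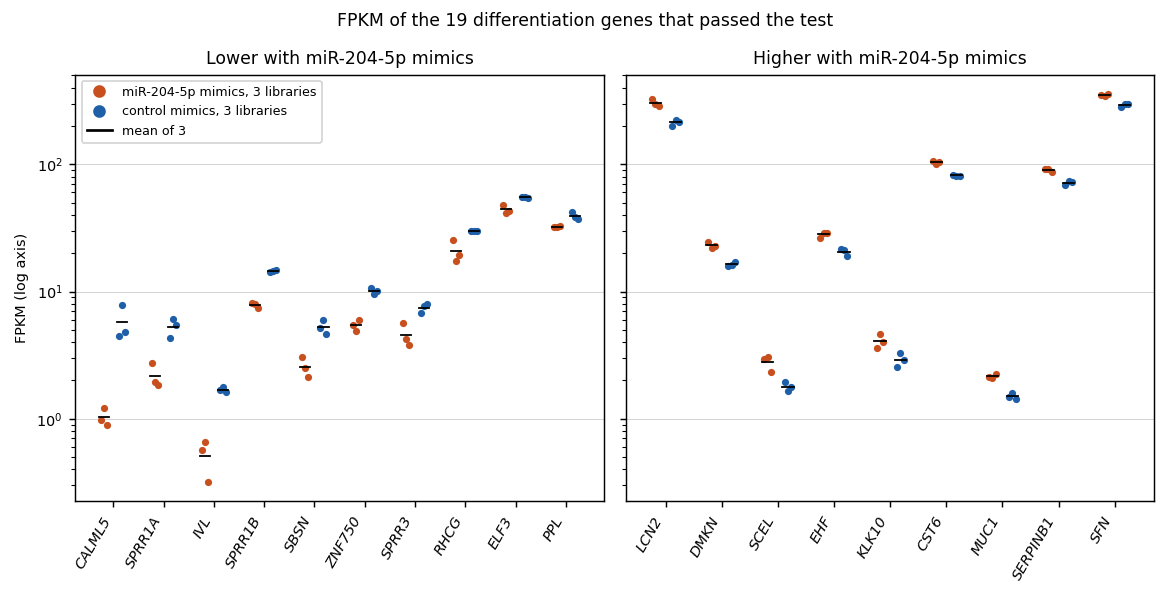
FPKM (log axis) of the 19 members that passed the test, with 1 point for each of 3 libraries with miR-204-5p mimics (orange) and 3 with control mimics (blue) and a bar for the mean. The groups of points do not overlap for any of the 19, and the widest gap is that of CALML5, at 0.895 to 1.20 against 4.45 to 7.87 FPKM.

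Of the envelope proteins and their plakins, 5 of 12 fell and 1 rose, with a median log2 fold change of -0.30. The members that fell were SPRR1A, IVL, SPRR1B, SPRR3 and PPL. IVL encodes involucrin, an early scaffold protein of the envelope, at chr1:152908545-152911886. It stood at 0.567, 0.653 and 0.318 FPKM with miR-204-5p mimics and at 1.67, 1.78 and 1.63 FPKM with control mimics. All libraries with miR-204-5p mimics lay well below all control libraries. The means were 0.513 ± 0.174 and 1.69 ± 0.0785 FPKM (SD, n = 3 each), a 3.31-fold ratio of means, and the log2 fold change was -0.84 ± 0.09 (SE; limma adjusted p = 0.000765). These are low levels, which at the inferred depth stand for about 11 to 22 fragments in a library with miR-204-5p mimics and 51 to 58 in a control library. IVL was the only member that fell and also held a seed match.

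SPRR1A and SPRR1B encode small proline-rich proteins that bridge the other envelope proteins. SPRR1A was at 2.74, 1.94 and 1.85 FPKM with miR-204-5p mimics and at 4.29, 6.05 and 5.43 FPKM with control mimics, and the log2 fold change was -0.98 ± 0.15 (SE; limma adjusted p = 0.00262). For SPRR1B the values were 8.12, 7.92 and 7.39 against 14.2, 14.6 and 14.7 FPKM, a log2 fold change of -0.82 ± 0.05 (SE; adjusted p = 0.00011). Both fell with no overlap, and SPRR1B had the tighter groups. The genes are near-identical in sequence, so how reads were shared between them is uncertain, and SPRR1A is listed with a single exon of 270 bases. SPRR3, a proline-rich protein of the esophagus and oral lining, was at 5.69, 4.22 and 3.80 against 6.75, 7.66 and 8.01 FPKM, with a log2 fold change of -0.62 ± 0.13 (SE; adjusted p = 0.0109). Its lowest control library stood above its highest library with miR-204-5p mimics.

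The plakins carried more RNA and differed less. PPL, periplakin, was at 32.4, 32.3 and 32.5 FPKM with miR-204-5p mimics and at 42.0, 38.4 and 37.2 FPKM with control mimics, and fell by 0.27 on the log2 scale (SE 0.05; limma adjusted p = 0.00689). Its partner EVPL, envoplakin, was at 13.4, 13.5 and 11.1 against 19.0, 12.1 and 18.5 FPKM (log2 fold change -0.34 ± 0.17, adjusted p = 0.166). The groups overlapped for EVPL because of control replicate 2, and without that library the log2 fold change was -0.54 (adjusted p = 0.0103). With another library left out, the limma adjusted p of EVPL reached 0.382. The transcript listed for EVPL has 8.8% of the length of its longest, and whether its FPKM rests on that transcript alone is not known.

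SCEL, sciellin, a further precursor of the envelope, went the other way. It was at 2.97, 3.08 and 2.34 FPKM with miR-204-5p mimics and at 1.95, 1.64 and 1.78 FPKM with control mimics, with a log2 fold change of 0.44 ± 0.09 (SE; limma adjusted p = 0.0109) and no overlap. CNFN, cornifelin, was at 2.41, 2.09 and 3.76 against 4.74, 3.16 and 4.35 FPKM (log2 fold change -0.45 ± 0.19, adjusted p = 0.108). Its groups overlapped through replicate 3 with miR-204-5p mimics, and the adjusted p was 0.0274 without that library. With another library left out, the limma adjusted p of CNFN reached 0.278. ECM1 had a log2 fold change of -0.13 (adjusted p = 0.254). SPRR2A, CRCT1 and FLG (filaggrin) averaged at most 0.272 FPKM in either group, SPRR2A was listed at 0 in 1 library, and changes in these genes were not detectable at this depth. Reads of SPRR2A may also belong to its close copies SPRR2D and SPRR2E.

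TGM1, the transglutaminase of the keratinocyte membrane that joins the envelope proteins, was at 1.46, 1.61 and 1.15 FPKM with miR-204-5p mimics and at 1.35, 1.46 and 1.30 FPKM with control mimics. The groups overlapped, with a log2 fold change of 0.02 and a 95% interval of -0.18 to 0.22 (limma adjusted p = 0.888). The sign of this value changed with the scaling of the libraries.

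**Figure D3:**
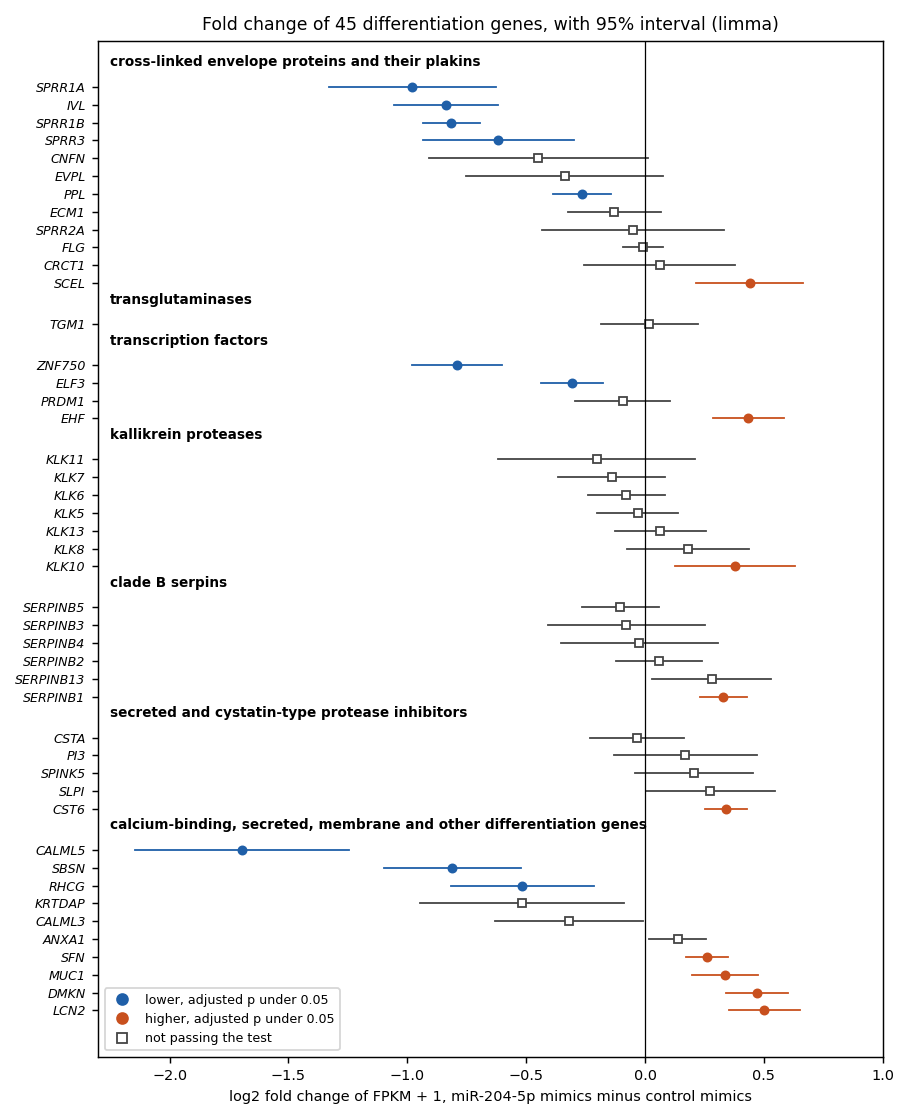
Log2 fold change of FPKM + 1 (x; points) with its 95% interval from limma (lines) for the 45 members by role (y), blue for lower, orange for higher and open squares for members that did not pass the test. Envelope proteins lie mainly left of 0 and the secreted inhibitors mainly right of it, while 6 of 7 kallikreins and 5 of 6 serpins did not pass the test.

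Among 4 transcription factors of the program, 2 fell and 1 rose (75.0% called, against 40.8% of all genes). ZNF750, a zinc finger factor that is needed for terminal differentiation of keratinocytes, was at 5.44, 4.87 and 6.0 FPKM with miR-204-5p mimics and at 10.6, 9.59 and 10.1 FPKM with control mimics. The control libraries all lay far above the others, with a ratio of means of 1.86 and a log2 fold change of -0.79 ± 0.08 (SE; limma adjusted p = 0.000557). The transcript listed for ZNF750 has 40.7% of the length of its longest. The ETS factors ELF3 and EHF, which are related epithelial activators, moved in opposite directions. ELF3 was at 47.9, 41.7 and 43.3 against 55.6, 54.9 and 54.5 FPKM and fell by 0.31 on the log2 scale (SE 0.05; adjusted p = 0.00525). EHF was at 26.5, 29.1 and 28.6 against 21.5, 21.2 and 18.9 FPKM, with a log2 fold change of 0.43 ± 0.06 (SE; adjusted p = 0.00224). Neither gene's groups overlapped. PRDM1, a repressor also known as BLIMP1 and the member with the 8mer shown above, was at 0.557, 0.381 and 0.329 against 0.427, 0.654 and 0.475 FPKM, with overlapping groups (log2 fold change -0.09, adjusted p = 0.406).

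Of 7 kallikreins, 1 rose and 6 did not pass the test (14.3% called, against 40.8% of all genes). KLK5, a trypsin-like protease of desquamation and the most abundant of them, was at 14.0, 14.1 and 15.1 FPKM with miR-204-5p mimics and at 16.2, 13.5 and 14.6 FPKM with control mimics (log2 fold change -0.03, 95% interval -0.20 to 0.14, limma adjusted p = 0.753). KLK10 was at 3.60, 4.64 and 4.02 against 2.54, 3.30 and 2.89 FPKM, a log2 fold change of 0.38 ± 0.11 (SE; adjusted p = 0.0287). Its groups were close but did not overlap. The call of KLK10 was lost without replicate 2 (adjusted p = 0.0823) or 3 (0.0674) of the miR-204-5p mimics, and without replicate 1 (0.0830) or 3 (0.0724) of the control mimics. KLK11 was at 0.974 against 1.30 FPKM on average (adjusted p = 0.389). KLK6, KLK7, KLK8 and KLK13 averaged under 1 FPKM, with adjusted p from 0.230 to 0.565. Without control replicate 1, KLK8 had an adjusted p of 0.0164, and without control replicate 2, KLK7 had one of 0.0252. Each passed in only 1 of 12 alternative fits, and with another library left out the limma adjusted p reached 0.532 (KLK8) and 0.567 (KLK7). KLK8 shares exon sequence with another row of the table on the same strand, and its reads cannot be told apart from that row.

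Of 6 clade B serpins, SERPINB1 rose and the others did not pass the test (16.7% called, against 40.8% of all genes). SERPINB1, an inhibitor of neutrophil proteases, was at 92.5, 91.2 and 87.7 FPKM with miR-204-5p mimics and at 69.0, 74.4 and 72.0 FPKM with control mimics. All 3 libraries with miR-204-5p mimics were higher, with a log2 fold change of 0.33 ± 0.04 (SE; limma adjusted p = 0.00136). SERPINB13, a cathepsin inhibitor of keratinocytes, was at 1.92, 2.04 and 1.51 against 1.24, 1.59 and 1.15 FPKM (log2 fold change 0.28 ± 0.10, adjusted p = 0.0743). Its adjusted p was 0.0384 without replicate 3 of the miR-204-5p mimics and 0.0444 without control replicate 2, and reached 0.195 with another library left out. SERPINB3 and SERPINB4, the squamous cell carcinoma antigens, are near-identical copies between which reads may be split, and had log2 fold changes of -0.08 (adjusted p = 0.684) and -0.03 (adjusted p = 0.905). SERPINB5, maspin, averaged 11.1 against 12.0 FPKM (adjusted p = 0.271), and SERPINB2 averaged 0.753 against 0.685 FPKM (adjusted p = 0.579).

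The secreted and cystatin-type inhibitors had a median log2 fold change of 0.20, and 1 of 5 passed the test. CST6, cystatin M/E, an inhibitor of the cathepsins of the cornifying layers, was at 106, 100.01 and 105 FPKM with miR-204-5p mimics and at 83.0, 81.4 and 80.5 FPKM with control mimics. It rose with a wide gap between groups, with a log2 fold change of 0.34 ± 0.04 (SE; limma adjusted p = 0.000728). CSTA, cystatin A, which is itself built into the envelope, was at 78.0, 67.3 and 62.5 against 67.7, 73.3 and 71.0 FPKM (log2 fold change -0.03, 95% interval -0.23 to 0.16, adjusted p = 0.778). SLPI was at 62.0, 49.6 and 45.7 against 46.1, 42.2 and 40.3 FPKM (log2 fold change 0.28 ± 0.11, adjusted p = 0.0990). Its lowest library with miR-204-5p mimics lay just under its highest control library, and without replicate 3 of the miR-204-5p mimics the adjusted p was 0.0492. With another library left out, the limma adjusted p of SLPI reached 0.230. PI3, elafin, averaged 38.1 against 33.6 FPKM (adjusted p = 0.328). SPINK5, the kallikrein inhibitor LEKTI, averaged 1.67 against 1.31 FPKM (adjusted p = 0.163). Its adjusted p was 0.0322 without replicate 1 of the miR-204-5p mimics and reached 0.359 with another library left out. The transcripts listed for SPINK5 and SERPINB13 have 13.5% and 18.1% of the length of the longest.

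Of the 10 remaining members, 3 fell and 4 rose (70.0% called, against 40.8% of all genes). CALML5, a calmodulin-like protein of skin that binds calcium, at chr10:5498697-5499555, had the largest log2 fold change of all 45 members. It was at 0.975, 1.20 and 0.895 FPKM with miR-204-5p mimics and at 4.45, 7.87 and 4.81 FPKM with control mimics. The control libraries were all far higher, with replicate 2 the highest. The means were 1.03 ± 0.160 and 5.71 ± 1.88 FPKM (SD, n = 3 each), a ratio of 5.57, and the log2 fold change was -1.70 ± 0.19 (SE; limma adjusted p = 0.000811). The gene has no seed match in its 3′UTR of 301 bases. Its neighbour CALML3 was at 0.370, 0.159 and 0.394 against 0.682, 0.870 and 0.364 FPKM, with overlapping groups (log2 fold change -0.32, adjusted p = 0.0951). Without control replicate 3 the adjusted p of CALML3 was 0.0234, and with another library left out it reached 0.247.

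SBSN, suprabasin, a secreted protein of the suprabasal layers, was at 3.05, 2.50 and 2.15 FPKM with miR-204-5p mimics and at 5.12, 5.97 and 4.64 FPKM with control mimics, with a log2 fold change of -0.81 ± 0.12 (SE; limma adjusted p = 0.00251). RHCG, an ammonia transporter of the membrane, was at 25.4, 17.5 and 19.3 against 29.7, 29.8 and 29.8 FPKM, with a log2 fold change of -0.52 ± 0.13 (SE; adjusted p = 0.0171). Both fell without overlap, and the spread of RHCG lay on the side of the miR-204-5p mimics. The call of RHCG was lost without replicate 3 of the miR-204-5p mimics (adjusted p = 0.0564) and without control replicate 2 (adjusted p = 0.0502). KRTDAP, a small secreted protein of differentiating keratinocytes, was at 0.604, 0 and 0.260 against 0.889, 0.997 and 0.570 FPKM (log2 fold change -0.52 ± 0.18, adjusted p = 0.0588). Its adjusted p was 0.0180 without replicate 1 of the miR-204-5p mimics and reached 0.157 with another library left out. At the listed transcript length, the highest of the KRTDAP values stands for about 6 fragments.

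The 4 members of this group that rose were LCN2, DMKN, MUC1 and SFN. LCN2, lipocalin 2, an iron-binding protein of innate defence, was at 323, 297 and 285 FPKM with miR-204-5p mimics and at 200, 223 and 216 FPKM with control mimics, with a log2 fold change of 0.50 ± 0.06 (SE; limma adjusted p = 0.00126). DMKN, dermokine, a secreted protein of the upper layers, was at 24.5, 21.9 and 22.7 against 15.9, 16.1 and 17.0 FPKM, with a log2 fold change of 0.47 ± 0.05 (SE; adjusted p = 0.000919). Neither overlapped between groups. SFN, 14-3-3 sigma, a cell cycle regulator of stratified epithelium, was at 350, 343 and 357 against 284, 297 and 295 FPKM, with a log2 fold change of 0.26 ± 0.04 (SE; adjusted p = 0.00201). MUC1, a membrane mucin, was at 2.12, 2.10 and 2.26 against 1.48, 1.59 and 1.44 FPKM, with a log2 fold change of 0.34 ± 0.06 (SE; adjusted p = 0.00443). Exon sequence of MUC1 is shared with another row on the same strand, so their reads cannot be told apart.

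ANXA1, annexin A1, which binds membranes in the presence of calcium and is built into the envelope, was the most abundant member. It was at 447, 433 and 402 FPKM with miR-204-5p mimics and at 390, 378 and 398 FPKM with control mimics, and did not overlap, with a log2 fold change of 0.14 ± 0.05 (SE; limma adjusted p = 0.0711). Without replicate 3 of the miR-204-5p mimics the adjusted p was 0.0237, and with another library left out it reached 0.197. Together ANXA1, SFN and LCN2 made up 63.4% to 64.4% of the summed FPKM of the 45 members with miR-204-5p mimics and 59.5% to 60.8% with control mimics. That sum was 1621 to 1768 FPKM against 1468 to 1503 FPKM, so it stood higher while the envelope proteins that passed the test were mainly lower.

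Members that lie near one another in the genome were compared next. In the epidermal differentiation complex on chromosome 1, 7 members span 755 kb. Of these members 4 (IVL, SPRR1A, SPRR3 and SPRR1B) fell and none passed the test upward (57.1% called, against 40.8% of all genes). FLG, CRCT1 and SPRR2A, which all averaged under 1 FPKM, did not pass. Genes that lie between the members but are not on the list were not compared here. The 7 kallikreins span 122 kb of chromosome 19, and 1 of them rose (14.3% called). None of the 5 serpins in 420.4 kb of chromosome 18 passed the test by limma, with 1 (SERPINB13) at an unadjusted p under 0.05. SBSN, DMKN and KRTDAP lie within 40.9 kb of chromosome 19, and there SBSN fell while DMKN rose. The listed transcripts of SBSN and DMKN have 30.5% and 21.3% of the length of their longest, and a change of isoform cannot be told apart from a change of level.

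**Figure D4:**
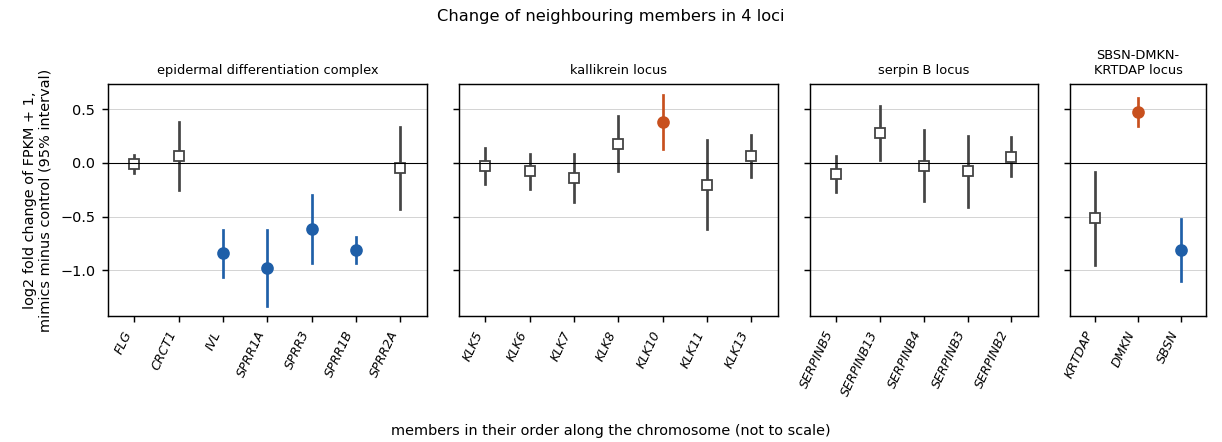
Log2 fold change of FPKM + 1 (y) with its 95% interval for members in their order along the chromosome (x, not to scale) in 4 loci, blue for lower, orange for higher and open squares for members that did not pass the test. In the epidermal differentiation complex the 4 members that fell lie between -0.98 and -0.62, and in the SBSN-DMKN-KRTDAP locus DMKN lies at 0.47 and SBSN at -0.81.

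Over the whole table, the 1386 genes that hold an 8mer had a median log2 fold change of -0.07, those with a 7mer-m8 (1599) one of -0.02, those with a 7mer-A1 (1402) one of 0.01 and the 10460 without a match one of 0.06. Of the 39 members without a match, 8 fell and 8 rose, with a median of -0.03. Over all genes without a match, 1381 of 10460 were called lower and 2825 higher. Of the 5 members with a match, IVL fell (-0.84) and SCEL rose (0.44). CALML3 (-0.32), PRDM1 (-0.09) and SPINK5 (0.20) did not pass the test. SPRR1A has no annotated 3′UTR. Thus 8 of the 10 members that fell have a 3′UTR without a match, as do 39 of all 44 members with a 3′UTR. Among the 8 are CALML5, SPRR1B, SBSN and ZNF750. Over all genes with an 8mer, 443 of 1386 were called lower and 188 higher. For a 7mer-m8 these counts were 399 and 273 of 1599, and for a 7mer-A1 288 and 284 of 1402.

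**Figure D5:**
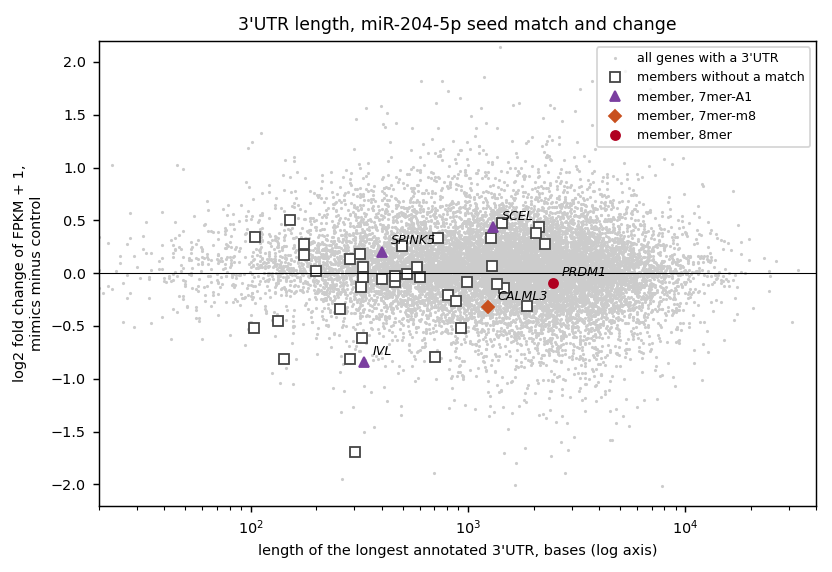
Length of the longest annotated 3′UTR in bases (x, log axis) against the log2 fold change of FPKM + 1 (y) for all genes (grey), members without a seed match (open squares) and the 5 members with one (filled, named). CALML5, the lowest square at -1.70, has 301 bases and no match, and PRDM1, the only member with an 8mer, lies at -0.09.

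Promoters were read for 34 of the 45 members (RefSeq, GRCh38.p14, 250 bases before to 50 after the start), with motifs chosen after the members' values had been seen. AP-1 is the Fos-Jun family, known for its part in the expression of envelope genes. Its motif TGANTCA, on either strand, was found in 15 of 34 member promoters (44.1%), against 5.04% of the 11452 promoters of genes in the table. It occurred in 5 of 7 promoters of members that fell (IVL, SBSN, SPRR1A, SPRR1B and SPRR3), 3 of 8 of those that rose (LCN2, SCEL and SFN) and 7 of 19 of those that did not pass the test. The E-box CAGGTG, on either strand, stood in 44.1% of member promoters and 19.5% of all, and TATAAA on the gene's strand in 38.2% and 4.19%. Windows around the AP-1 motif (in capitals) are shown for the 4 members of the epidermal differentiation complex that fell and for LCN2, which rose. All lie on the plus strand upstream of the start, and the motifs are at chr1:152908423-152908429 (IVL), chr1:152983973-152983979 (SPRR1A), chr1:153001579-153001585 (SPRR3), chr1:153031062-153031068 (SPRR1B, the farther of 2 from the start) and chr9:128149401-128149407 (LCN2).
IVL: atgcctgtggTGAGTCAggaaggggtta
SPRR1A: gatggtagtgTGAGTCAtgtgtgacagg
SPRR3: gggtggacagTGAGTCAggcccaggtga
SPRR1B: tcacaaaagtTGAGTCAacaggtgggtg
LCN2: tggcaaagaaTGAATCAacccaccctag

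Genes of the same program outside the 50 were read from 5 further lists, also chosen with earlier results of these data known. Of 28 regulators of keratinocyte differentiation, 17 fell and 1 rose (64.3% called, against 40.8% of all genes). Their median log2 fold change was -0.30, beside 0.03 over all genes. OVOL1, a zinc finger repressor, averaged 2.95 against 7.21 FPKM (log2 fold change -1.06, limma adjusted p = 0.000282). GRHL1, a grainyhead-like activator of desmosomal genes, averaged 13.0 against 27.5 FPKM (-1.03, adjusted p = 3.13e-05). TP63, which encodes p63, the master factor of stratified epithelium, averaged 27.4 against 55.9 FPKM (-1.01, adjusted p = 0.000276). The AP-1 subunit FOSL2 (-0.76), the homeobox factor BARX2 (-0.64) and the receptor NOTCH3 (-0.60) fell as well. In the longest 3′UTR, OVOL1 holds an 8mer, TP63 and FOSL2 a 7mer-m8 and BARX2 a 7mer-A1, while GRHL1 and NOTCH3 hold no match. Whether these sites were bound was not tested. The 1 gene that rose, RBPJ (0.25, adjusted p = 0.0429), lost the call under each scaling of the libraries.

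Of 19 other envelope and stratum corneum genes, 6 fell and 4 rose (52.6% called, against 40.8% of all genes). With a mean of at least 1 FPKM 2 were lower, and without replicate 2 of the miR-204-5p mimics 2 were higher. CASP14, the caspase of cornification, was at 9.84, 4.14 and 4.26 FPKM with miR-204-5p mimics and at 17.9, 16.9 and 12.9 FPKM with control mimics (log2 fold change -1.33, limma adjusted p = 0.0130). LYPD3 fell by 0.79 on the log2 scale, while PADI3, which deiminates envelope proteins, rose by 0.90 and TGM2, the tissue transglutaminase, by 0.56. Of 15 other kallikreins, serpins and inhibitors, 3 fell and 1 rose (26.7% called). SERPINB7 rose by 1.11, the largest change in that list, and the protease ST14, matriptase, fell by 0.61.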

How the data were processed

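The 6 UM-SCC1 cultures, 3 per group, were sequenced (Illumina TruSeq, HiSeq X). The authors deposited 1 FPKM value per gene and library, with a single transcript listed for each gene. Whether a value was computed on that transcript alone is not stated in the sources used here. The submitters' processing notes name HISAT2, StringTie and hg38, and versions are not given in the sources used here. Columns with the authors' edgeR fold changes, p-values and FDR were not used. Listed transcripts were matched to GENCODE 29 (14951 of 14959 found). No counts were given, so edgeR, which the study's methods name, could not be run. log2(FPKM + 1) was fitted by linear models with a trended variance prior (lmFit and eBayes of limma 3.58.1, R 4.3.3), two-sided, with no filter or further scaling, and Benjamini-Hochberg adjustment over all genes at 0.05. On simulated data with normal noise, 174 of 200 changed genes and 7 unchanged genes were called, among 14959. The 200 had a mean of at least 1 FPKM and larger changes than members such as SFN or PPL. In the real data 40.8% of genes were called, so these rates do not describe the test on the members. Depth was inferred from the smallest FPKM step on genes with 1 transcript, where 31.5% to 36.7% of low values were whole multiples within 0.03 steps. Fragment numbers are therefore approximate, and those of genes with more than 1 transcript also assume the listed length. Spearman correlations were 0.9899 to 0.9908 within and 0.9733 to 0.9756 between groups.

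All 50 members could be named, with values per library for those with a mean of at least 1 FPKM in a group that passed the test and for the largest changes among the others. From each other list, up to 6 genes with the largest change among those called with a mean of at least 1 FPKM could be named, and RBPJ was named after its value was seen. Members and lists were chosen with earlier results of these data known. Replicate numbers did not pair the libraries. The alternatives were a pseudocount of 0.1, a mean of at least 1 FPKM, the replicate block, 3 scalings, no trend, each library left out, and other 3′UTR choices. Python 3.11.15, numpy 2.4.6, pandas 2.3.3, scipy 1.17.1 and matplotlib 3.10.9 were used.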

Additional observations from a re-analysis of the deposited data

How the results depend on the processing

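Of the 19 called members, 17 kept their call in all 13 alternative fits and none changed sign, and the exceptions were KLK10 and RHCG. Leaving out 1 library in turn gave 10 to 11 lower and 8 to 11 higher members, and the other alternatives gave the same ranges. KLK10 was also lost under quantile normalization (log2 fold change 0.30, limma adjusted p = 0.0569), where KRTDAP was gained (-0.56, adjusted p = 0.0460). Scaling moved the median of all genes from 0.03 to at lowest -7e-05, and that of the members from -0.03 to -0.07 under each scaling. Of all called genes, 58.7% were higher in the main fit, against 51.6% with equal sums, 51.3% with equal medians and 50.1% with quantile normalization. The lead of higher over lower calls in the background thus depended on the scaling. The cause of these shifts was not tested.

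The sign of TGM1 reversed with equal sums (-0.0079), equal medians (-0.0082) and quantile normalization (-0.055), and that of SERPINB2 with quantile normalization (-0.0061). With 1 library left out, signs reversed for members near 0: TGM1 (range -0.0438 to 0.0983), CRCT1 (-0.076 to 0.15), SERPINB4 (-0.14 to 0.0646), CSTA (-0.12 to 0.0368), SPRR2A (-0.20 to 0.0832), KLK5 (-0.0905 to 0.0315), FLG (-0.0226 to 0.0107) and SERPINB3 (-0.19 to 0.0736).

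With a mean of at least 1 FPKM, 2 other envelope genes were lower, since fewer genes were tested, and 2 regulators were higher. No regulator was higher by limma with equal sums, equal medians or quantile normalization (0 each), and 0 to 2 were with 1 library left out. Under quantile normalization 6 barrier lipid genes were lower. Other envelope genes higher numbered 2 without replicate 2 of the miR-204-5p mimics. Seed matches numbered 3 in protein-coding transcripts and 6 with all 3′UTRs joined.

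The same-number libraries had correlations of their deviations of -0.04, -0.02 and -0.11. With the replicate block, 10 members were lower and 11 higher, and SERPINB13 (adjusted p = 0.0391) and SLPI (0.0315) were gained, while the barrier lipid gene SMPD1 was lost (0.0513). FPKM limits what can be said of the 11 members under 1 FPKM, which stand for 0 to 34 inferred fragments per library.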

Other observations

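Barrier lipid genes make and transport the lipids that seal the cornified layer. Of the 16 with a row 3 fell and 3 rose (37.5% called, against 40.8% of all genes). Under quantile normalization 6 were lower. UGCG, which makes glucosylceramide, was at 41.2, 41.0 and 38.7 FPKM with miR-204-5p mimics and at 17.8, 18.4 and 19.5 FPKM with control mimics (log2 fold change 1.08 ± 0.05, limma adjusted p = 5.03e-05). ABCA12, the transporter that loads glucosylceramide into lamellar granules, was at 1.14, 1.05 and 0.928 against 2.29, 2.55 and 1.92 FPKM (-0.67 ± 0.09, adjusted p = 0.00156). The enzyme and the transporter of the same lipid thus moved in opposite directions, with no overlap in either gene. The lipoxygenases ALOXE3 (0.47) and ALOX12B (0.38) rose together. SMPD1 was lower (-0.64, adjusted p = 0.0472), but lost the call without replicate 1 (0.133) or 2 (0.127) of the miR-204-5p mimics and without replicate 2 (0.0895) or 3 (0.0829) of the control mimics.

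Of 16 genes of basal keratinocytes, 8 fell and 6 rose (87.5% called, against 40.8% of all genes). COL17A1, a collagen of hemidesmosomes, was at 36.8, 32.6 and 32.1 FPKM with miR-204-5p mimics and at 85.1, 87.2 and 76.6 FPKM with control mimics (log2 fold change -1.27 ± 0.07, limma adjusted p = 8.86e-05). The basal keratins KRT15 (-0.83) and KRT14 (-0.51) fell, while LAMB3, a chain of laminin-332 in the same basement membrane zone, rose (0.70).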
